A study of Sus scrofa with 180 samples.

Results

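ZBTB16, MITF and IFRD1 are 3 regulators of transcription. Their mRNA was measured in 90 pigs, once in the Longissimus muscle (LM) and once in the Semimembranosus muscle (SM) of each animal. Their probes were found by symbol in the probe-to-gene tables of the study, which were used for names and for nothing else. Each gene had 1 probe, so that 3 of the 15198 probes on the array, and 3 of the 3481 genes with a name, are described. The 3 genes were chosen by the difference of their signal between LM and SM, which is therefore given as a description, without a test. What was tested is the variation of the genes among pigs within each muscle, which that choice did not use directly. In SM, however, many probes higher in LM varied together with IFRD1 and ZBTB16, as described below. The relations within SM are therefore not independent of the choice.

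The pigs were females and barrows of an F2 intercross between lines F016 (FH016 in the paper) and FH019. The former is of Pietrain type, and FH019 is a synthetic line with Hampshire, Duroc and Large White founders. No treatment is named for any of the pigs. Muscle was taken from the carcass shortly after slaughter, and total RNA from the whole tissue was labelled with Cy3 and hybridized to a single-colour Agilent array of pig skeletal muscle, so that every pig has 1 LM and 1 SM array. The labels do not say which arrays came from females or from barrows. In whole tissue, fewer cells of a type and less RNA per cell cannot be told apart.

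ZBTB16, also called PLZF, is a zinc finger protein with a BTB domain. It represses genes together with co-repressors and histone deacetylases, serves as an adaptor of the cullin 3 ubiquitin ligase, and is induced by glucocorticoids in many cell types. MITF is a basic helix-loop-helix leucine zipper factor known as the master regulator of melanocytes. With its relatives TFEB, TFE3 and TFEC it also acts in mast cells, osteoclasts and on genes of the lysosome. IFRD1, also called TIS7, has no DNA-binding domain of its own. It works as a co-regulator with histone deacetylase complexes and MyoD, is induced as an immediate-early gene, and is known from muscle regeneration.

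The probes are 60 bases long. They are shown because all values below rest on these single oligonucleotides, and because a further pair of probes with no gene name stood close to MITF and to IFRD1 in both muscles. The first 15 bases are in capitals, since the number of C among them was counted (an array-wide index of C-rich probes is one of the covariates tried).
ZBTB16: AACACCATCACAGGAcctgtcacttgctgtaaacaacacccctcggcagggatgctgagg
MITF: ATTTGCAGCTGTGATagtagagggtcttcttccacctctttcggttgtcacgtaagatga
IFRD1: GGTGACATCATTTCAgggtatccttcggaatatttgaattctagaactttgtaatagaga
CJ008057.1_632: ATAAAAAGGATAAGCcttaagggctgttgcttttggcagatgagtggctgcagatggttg
BP463358.1_626: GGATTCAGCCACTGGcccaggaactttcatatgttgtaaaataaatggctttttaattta

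The ZBTB16 probe had 5 C among its first 15 bases, the MITF probe 2 and the IFRD1 probe 3, where the median of all probes was 3. The GC content was 55% for ZBTB16, 45% for MITF and 35% for IFRD1, against a median of 45%. The array annotation gave the ZBTB16 and IFRD1 probes a cross-hybridization score of 0 and the MITF probe a score of 1, which 7.08% of all probes had. The longest run of bases that any other probe of the array shared with each of the 3 was 12 bases. The scanner files give no position in the genome for any probe, so that neither the exon nor the transcript form that a probe reads is known here.

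Processed signal here means spot brightness less the background that Feature Extraction estimated for it. For comparison between arrays it was log2 transformed and centred on the array median, taken over the 10987 probes that passed the filter. Values on this scale are called centred log2 values. The scale serves to compare arrays for 1 probe, not 1 probe with another. On the median LM array 83.4% of the probes stood well above background, and on the median SM array 73.4%. LM lay on 21 slides and SM on 14, with no slide and no scan day shared, so that muscle and slide cannot be told apart for any difference between LM and SM.

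ZBTB16 had a processed signal between 159 and 934 in LM, with a median of 442, and was well above background on all 90 arrays. In SM its signal lay between 16.6 and 171, with a median of 65.8, and 83 of 90 spots were well above background. The ranges of the processed signal thus met at their ends, where 1 SM array exceeded the lowest LM array. Of the 83 SM arrays with a usable spot, 3 had a centred log2 value above the lowest of LM. LM had the higher value in all 83 pigs that had a usable spot in each muscle, and the difference within a pig ran from 0.76 to 3.51 on the log2 scale, with a median of 2.40. The mean difference was 2.31 ± 0.06 (SE), a FC ratio of 4.97. With background correction by normexp and an added offset of 50 the difference was 1.43 on the log2 scale, a FC ratio of 2.69.

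MITF had a processed signal between 146 and 654 in LM, with a median of 263, and all 90 spots were well above background. In SM the signal lay between 8.08 and 107, with a median of 40.9, and 67 of 90 spots were well above background. The processed signals of the 2 muscles did not overlap, whereas 1 SM array exceeded the lowest LM array once arrays were centred. MITF was chosen by this difference, and how many other probes had no overlap was not counted. The difference within a pig ran from 0.66 to 3.52 on the log2 scale over 67 pigs, with a median of 2.14, and LM was higher in all of them. The mean difference was 2.16 ± 0.06 (SE), a FC ratio of 4.48. With normexp it was 1.16 on the log2 scale, a FC ratio of 2.23.

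IFRD1 had a processed signal between 159 and 1894 in LM, with a median of 893, and between 31.5 and 377 in SM, with a median of 105. All 90 spots of LM and 89 of 90 of SM were well above background. The muscles overlapped more than for the other genes, with 24 of 89 SM arrays above the lowest LM array on the centred scale and 17 of 90 LM arrays below the highest SM array. Within pigs, as paired by label, LM was higher in 89 of 89 cases, by 0.11 to 4.49 (log2) and by a median of 2.75. The mean difference was 2.61 ± 0.09 (SE), a FC ratio of 6.11, and 2.00 with normexp, a FC ratio of 3.99. Across all probes, 9169 of 10987 were called different between the muscles by limma (adjusted P value ≤0.05), that is 83.5%, and 35.7% were called and higher in LM.

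**Figure D1:**
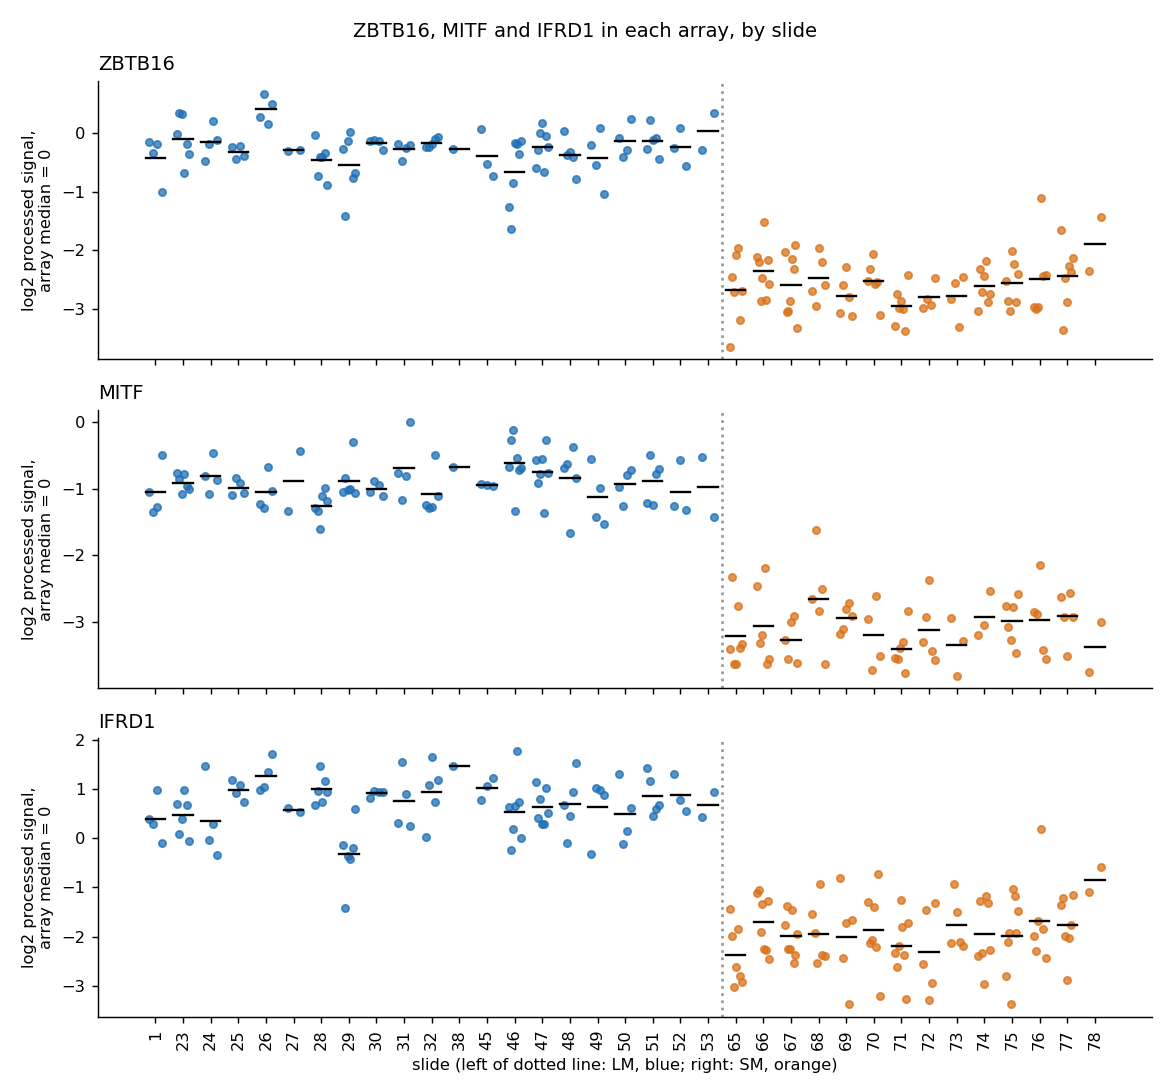
Centred log2 processed signal of ZBTB16, MITF and IFRD1 (vertical axes, array median at 0) in every array with a usable spot, by slide (horizontal axis). Points are pigs, in blue for LM and in orange for SM, and bars are slide means. LM lies above SM on average for each gene, with single arrays that overlap, most of them for IFRD1. Slide 29 is the lowest of LM for IFRD1.

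Pigs differed from each other in all 3 genes, and most in IFRD1. The SD among pigs of the centred log2 value of IFRD1 was 0.57 in LM and 0.70 in SM, which exceeded the SD of 92.8% and 97.5% of the probes kept. For ZBTB16 the SD was 0.39 in LM and 0.47 in SM, above 76.4% and 86.2% of the probes, and for MITF it was 0.34 and 0.46, above 66.9% and 85.4%. The median SD of all probes was 0.28 in LM and 0.29 in SM. Spots of ZBTB16 and MITF in SM lay near background, where a given error in signal counts for more on the log2 scale, and the share of this in their SD was not tested.

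Part of the variation in LM followed the slide. Among 18 LM slides with 3 or more arrays, slide means of IFRD1 ran from -0.32 to 1.27, and the F test of limma gave an adjusted P value of 0.00754 over all probes. The lowest was slide 29, whose 6 arrays lay between -1.42 and 0.60, while the next lowest slide mean was 0.35. Without slide 29 the adjusted P value for IFRD1 was 0.308. Slide means of ZBTB16 in LM ran from -0.66 on slide 46 to 0.40 on slide 26, with an adjusted P value of 0.0365, and those of MITF from -1.25 to -0.62, with 0.228. Of the probes tested in LM, 53.7% differed between slides. In SM no gene of the 3 was called over 13 slides (adjusted P values 0.617 for ZBTB16, 0.452 for MITF and 0.841 for IFRD1), where 15% of the probes were. With the scan day in place of the slide ZBTB16 was not called in LM (adjusted P value 0.51).

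ZBTB16 rose and fell with MITF and with IFRD1 among the SM samples, and no pair of the 3 genes passed the test in LM. The 9 relations tested were the 3 pairs in each muscle and each gene between the muscles of a pig, with 100000 permutations of the pigs, two-sided, and P values adjusted over the 9. In SM, Pearson's r of ZBTB16 and MITF was 0.44 over 64 pigs (permutation P = 0.00043, adjusted 0.00193), and Spearman's rho was 0.34 (P = 0.0058, adjusted 0.0261). Without the 2 pigs farthest from the median of ZBTB16, r was 0.38 (adjusted P = 0.0212). The r of ZBTB16 and IFRD1 was 0.39 over 83 pigs (permutation P = 0.00029, adjusted 0.00193), with a rho of 0.33 (P = 0.0021, adjusted 0.0189), and it was 0.26 without the 2 farthest pigs (adjusted P = 0.0967), so that the call rests in part on those pigs. The pig 159 had the highest SM value of both genes, -1.11 for ZBTB16 and 0.19 for IFRD1, and the second highest of MITF, -2.14. MITF and IFRD1 had an r of 0.19 over 67 pigs (adjusted P = 0.217).

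As deviations from slide means, the pairs of ZBTB16 in SM had an r of 0.45 with MITF (62 pigs, permutation within slides, adjusted P = 0.0168) and of 0.33 with IFRD1 (81 pigs, adjusted P = 0.0289). Over all other probes, the 95th percentile of such r with ZBTB16 in SM was 0.32 and the 99th 0.50, so that many probes followed ZBTB16 as closely. The pair of ZBTB16 and MITF depended on the spots that failed the quality criteria. With the faint spots of all 90 pigs kept, r was 0.26 and the adjusted P value 0.059. In SM the level of MITF had an r of -0.31 with the share of probes well above background on the array, against -0.08 for ZBTB16 and 0.003 for IFRD1. With that share and the median signal of the array as covariates the r of ZBTB16 and MITF was 0.43 (adjusted P = 0.00211).

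In LM, ZBTB16 and MITF had an r of -0.09 over 90 pigs (adjusted permutation P = 0.532), ZBTB16 and IFRD1 an r of 0.22 (adjusted P = 0.108), and MITF and IFRD1 an r of -0.20 (adjusted P = 0.119). Spearman's rho for these pairs was 0.04, 0.06 and -0.19. The r of ZBTB16 and IFRD1 in LM was 0.11 without pig 133, which was the lowest of LM in IFRD1 and the second lowest in ZBTB16, and it was 0.09 within slides. It also differed with the version of the reading software: r was -0.19 over the 44 LM arrays read with version 9.5.1.1 and 0.46 over the 46 read with 9.5.3.1 (permutation P = 0.227 and 0.00168).

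The level of a gene in LM and its level in SM of the same pig were not related in these tests, which does not show that they are independent. Between the muscles r was 0.05 for ZBTB16 over 83 pigs, -0.11 for MITF over 67 and 0.01 for IFRD1 over 89 (adjusted permutation P values 0.72, 0.532 and 0.902). Across probes, muscles paired by label were no more alike than those of different pigs (median r -0.0099 and -0.0025). The values thus do not show that the pairing by label holds, and these relations rest on it.

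**Figure D2:**
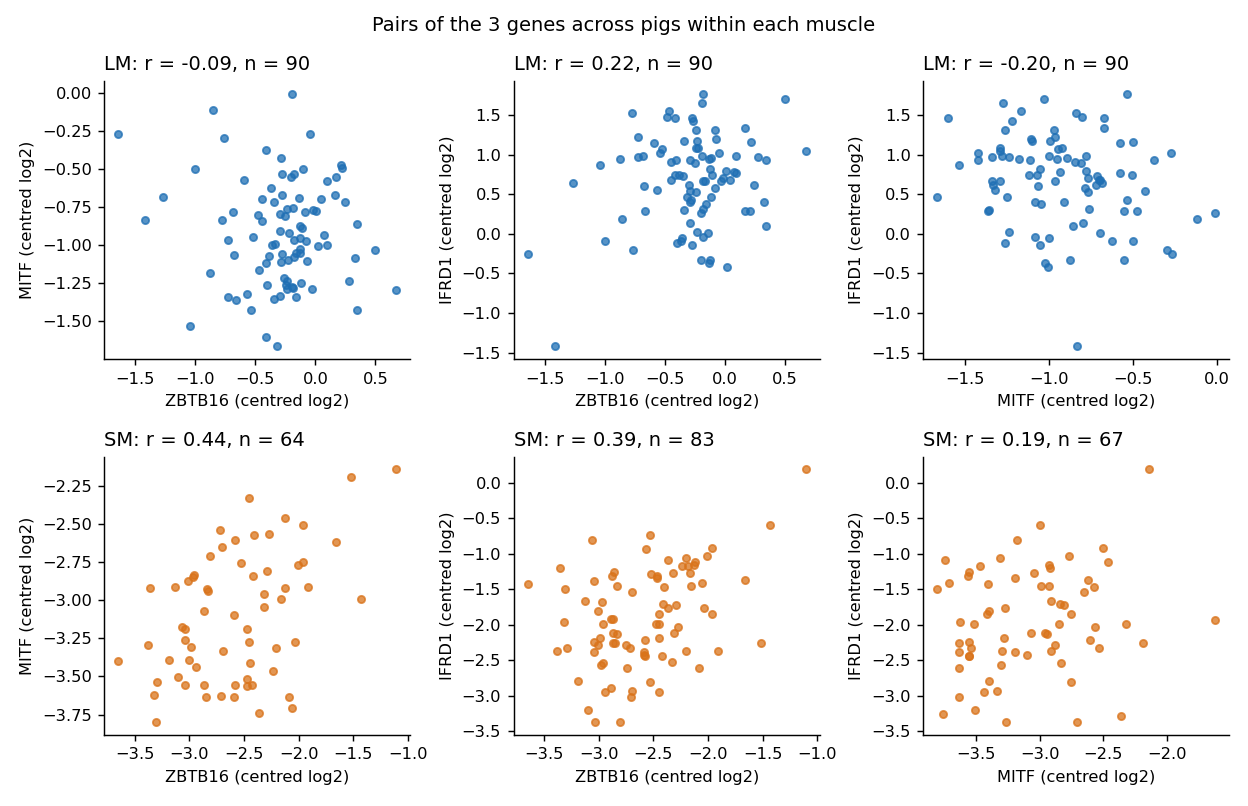
Centred log2 values of each pair of the 3 genes, with 1 point for each pig, in LM (upper row, blue) and SM (lower row, orange). ZBTB16 rises with MITF (r = 0.44) and with IFRD1 (r = 0.39) in SM, and the pairs in LM have r between -0.20 and 0.22.

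All other probes were then fitted on the level of each gene within each muscle by limma, with the slide as a term and P values adjusted over 10986 probes. A call means an adjusted P value ≤0.05. With ZBTB16, 293 probes were called in LM (2.67% of those tested, and 2.2% with a positive slope) and 401 in SM (3.65%, and 3.19% with a positive slope). With MITF, 102 were called in LM (0.928%, and 0.746% with a positive slope) and 7 in SM (0.0637%, all with a positive slope). With IFRD1, 50 were called in LM (0.455%, and 0.346% with a positive slope) and 798 in SM (7.26%, and 5.12% with a positive slope). Without the slide term the calls with IFRD1 were 207 in LM and 990 in SM, and with failed spots kept those in SM were 1001 for MITF and 974 for IFRD1. In the fits with the slide term in SM, MITF was called with ZBTB16 (adjusted P = 0.0224), but ZBTB16 was not called with MITF (0.123). IFRD1 was not called with ZBTB16 (0.0922), nor ZBTB16 with IFRD1 (0.0596). Of the calls with ZBTB16, 16 were shared between the muscles, all with the same sign, which is 5.46% of those in LM and 3.99% of those in SM. IFRD1 shared 12 (24% and 1.50%), of which 11 had the same sign, and MITF shared 1. Names below come from tables that list only probes the study found different between the muscles, and the table of probes overrepresented in SM was used in a shortened copy, so that a close probe without a name may be any gene.

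The named genes closest to ZBTB16 in LM, by Pearson's r of deviations from slide means, were TMEM147 (r = 0.61), PSMC5 (0.60), CHCHD10 (0.56), NDUFA8 (0.55) and MT-ND4L (0.54). TMEM147 is a membrane protein of the endoplasmic reticulum and PSMC5 an ATPase of the proteasome cap. CHCHD10 is a protein of the mitochondrial intermembrane space, and NDUFA8 and MT-ND4L are subunits of respiratory complex I, the latter encoded by the mitochondrial genome. All 5 were called, with adjusted P values between 0.000163 and 0.00299. In SM, MT-ND4L was called again (r = 0.50, adjusted P = 0.000862), as was NDUFA8 (r = 0.36, adjusted P = 0.0469). CHCHD10 also had an r of 0.36 there but missed the threshold (adjusted P = 0.0523), and TMEM147 and PSMC5 had r of 0.05 and 0.08. The lowest r with ZBTB16 in LM were those of RAP2B, a small GTPase (-0.52), of ERLEC1, a lectin of the endoplasmic reticulum (-0.52), and of MATR3, a nuclear matrix protein (-0.47), and all 3 were called. The number of calls with ZBTB16 in LM was 69 in place of 293 when the C-rich index was added as a covariate. That index had an r of 0.25 with ZBTB16 in LM and of 0.18 in SM.

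In SM the named genes closest to ZBTB16 were others: TRA2B, a splicing regulator (r = 0.59), S100A11, a calcium-binding protein (0.57), TCEB1, the elongin C subunit of elongin and of cullin ubiquitin ligases (0.57), VWA3A (0.57) and NUDT21, a subunit of the mRNA cleavage factor (0.56). Their adjusted P values were 0.000291 to 0.000349. In LM none of the 5 was called, and their r was 0.04 to 0.26. The lowest r in SM belonged to LOXL1, a lysyl oxidase that crosslinks elastin (-0.57), to RCN3, a calcium-binding protein of the secretory pathway (-0.49), and to PCOLCE, which enhances the processing of procollagen (-0.48). In LM their r was -0.17, 0.07 and 0.02. Of 6 fibroblast markers 2 were measured, COL1A2 and LUM, and both fell as ZBTB16 rose in SM (r = -0.42 and -0.38, adjusted P = 0.0088 and 0.0301), with summed signals of 1664 to 22645 in SM and 939 to 11253 in LM. Neither call was kept with failed spots included (adjusted P = 0.155 and 0.406), and that of LUM was lost with centring on the 75th percentile (0.471). The part of fibroblast content in the relation of ZBTB16 to LOXL1, RCN3 and PCOLCE was not tested.

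The named genes closest to MITF in LM were NDUFA4, ATP5I, TOB2, SLC30A6 and ZNF800. NDUFA4, a subunit tied to the respiratory chain (r = 0.58), and ATP5I, a subunit of ATP synthase (0.57), led the named genes, with adjusted P values of 0.000873 each. They were followed by TOB2, an antiproliferative protein (0.53), SLC30A6, a zinc transporter (0.51), and ZNF800, a zinc finger protein (0.50). In SM, TOB2 had an r of 0.45 and NDUFA4 of 0.39, higher than all but 0.255% and 1.24% of the probes, but neither was called (adjusted P = 0.11 and 0.17). ATP5I had fewer than 60 SM arrays in common with MITF, and no r was taken. The lowest in LM were TRIM44 (-0.47), SUPT4H1, an elongation factor of transcription (-0.47), and HSD3B1, an enzyme of steroid synthesis (-0.46). In place of 102 probes, 40 were called with MITF in LM when array signal was added as covariates and 31 when the C-rich index was.

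In SM no named gene was called with MITF. SETD5 (r = 0.49), NFKB1 (0.48), SNRNP70 (0.47), SLC25A29 (0.47) and MYST2 (0.46) had the highest r, with adjusted P values of 0.0696 to 0.123, and ADM (-0.50), SH3KBP1 (-0.49) and PADI2 (-0.45) had the lowest. The number of calls with MITF in SM moved from 7 to 461 without the slide term and to 1001 with failed spots kept. The unnamed probe CJ008057.1_632, printed above, was the closest of all probes to MITF in LM (r = 0.67, adjusted P = 3.92e-06) and in SM (r = 0.66, adjusted P = 0.000297). It shares no run longer than 6 bases with the MITF probe, on either strand.

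The named genes closest to IFRD1 in LM were FOS, BTG2, TYR, FILIP1 and ARID4B. FOS, a subunit of the AP-1 transcription factor, had an r of 0.56 (adjusted P = 0.00263) and BTG2, an antiproliferative gene, an r of 0.55 (adjusted P = 0.00539). TYR, the tyrosinase of melanin synthesis, followed (r = 0.54, adjusted P = 0.00477), then FILIP1, which binds filamin A (0.50), and ARID4B, a subunit of the SIN3 and histone deacetylase complex (0.49). In SM, TYR was called again (r = 0.49, adjusted P = 0.000216), as was FOS (r = 0.33, adjusted P = 0.047), while BTG2 had a value of 0.31 (adjusted P = 0.0613). The lowest r with IFRD1 in LM were those of CENPQ, a centromere protein (-0.46), of PGLS, an enzyme of the pentose phosphate pathway (-0.46), and of SLC2A4, the insulin-regulated glucose transporter (-0.43). The last of these missed the threshold (adjusted P = 0.0559).

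In SM, IFRD1 had its closest gene in SLC16A12, a creatine transporter of the monocarboxylate family, with an r of 0.77 over 87 arrays (adjusted P = 8.48e-12), the highest of any probe. SLC16A12 was also called in LM (r = 0.49, adjusted P = 0.0175), where 0.118% of the probes had a higher r. ZBTB20, a BTB zinc finger repressor of the same family as ZBTB16, was next in SM (r = 0.68), then FAM160A1 (0.66), CCAR1, a co-activator of p53 and of nuclear receptors (0.65), and AMDHD1, an enzyme of histidine breakdown (0.65). In LM these 4 were not called, and the r of FAM160A1 was 0.43 (adjusted P = 0.0586). PXDN, a peroxidase that crosslinks collagen IV, had the lowest r in SM (-0.53), followed by TAX1BP3 (-0.50) and ICAM2, an adhesion molecule of endothelium (-0.50). The unnamed probe BP463358.1_626 was the closest to IFRD1 in LM (r = 0.65, adjusted P = 3.18e-05) and was high in SM (r = 0.71, adjusted P = 4.32e-09). It shared no run longer than 7 bases with the IFRD1 probe.

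**Figure D3:**
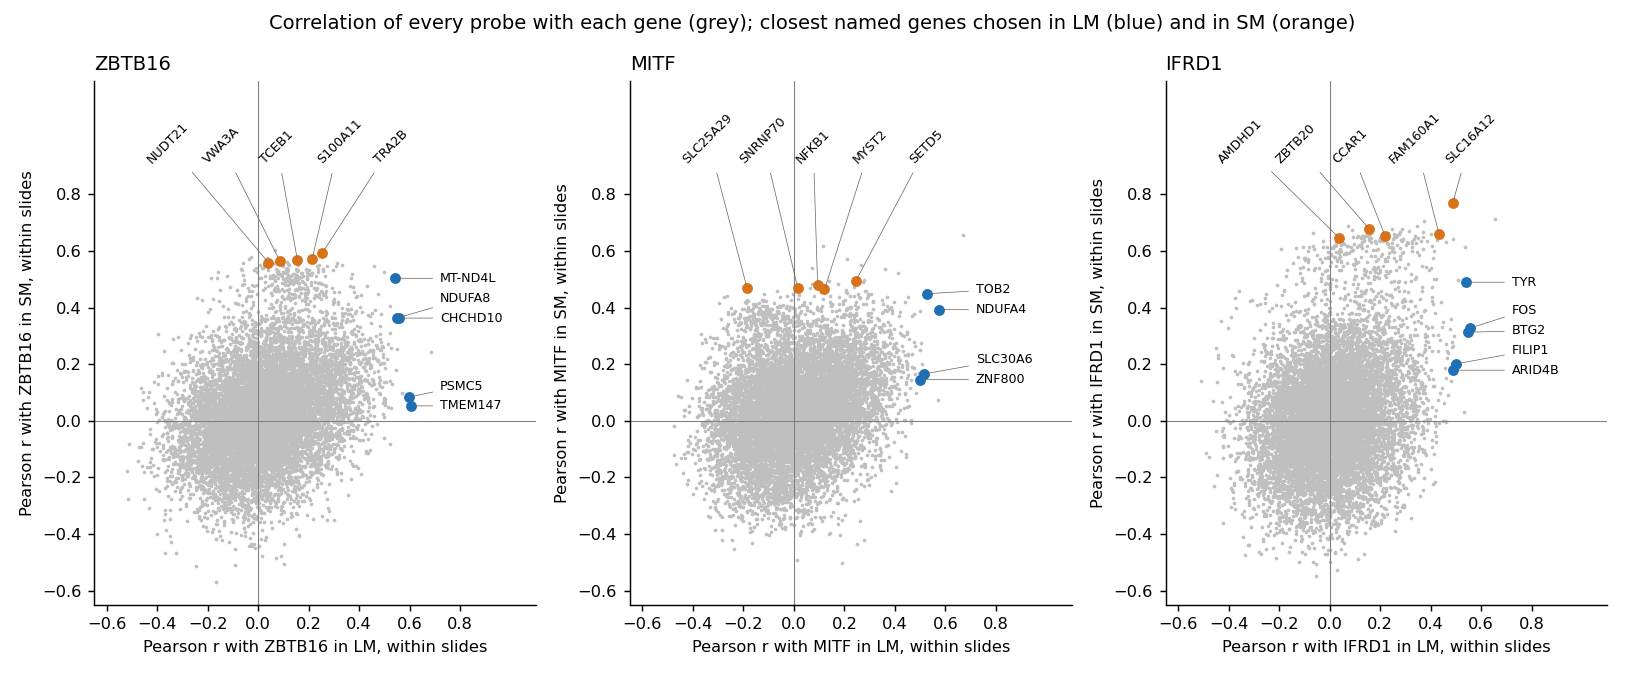
Pearson's r of every other probe with ZBTB16, MITF and IFRD1 in LM (horizontal axes) and SM (vertical axes), from deviations from slide means, in grey. The 5 named genes closest in LM are in blue and those closest in SM in orange (ATP5I is not drawn), and SLC16A12 has r of 0.49 and 0.77 with IFRD1.

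The probes that followed ZBTB16 and IFRD1 in SM were for the most part overrepresented in LM. Of the 351 probes called with a positive slope on ZBTB16 in SM, 323 (92.0%) had the higher mean in LM, and of the 563 for IFRD1, 533 (94.7%), against 43.7% of all probes kept. Their median difference between LM and SM was 1.55 and 1.38 on the log2 scale, where that of all probes was -0.07. Of the 235 probes called with a negative slope on IFRD1 in SM, 13 (5.53%) had the higher mean in LM. Of the probes called with a positive slope in LM, 104 of 242 (43.0%) for ZBTB16, 31 of 82 (37.8%) for MITF and 22 of 38 (57.9%) for IFRD1 had the higher mean in LM, as had 10 of the 12 (83.3%) with a negative slope on IFRD1. ZBTB16 and IFRD1 had 279 positive calls in common in SM, 79.5% of those of ZBTB16 and 49.6% of those of IFRD1. Over all probes, 5.12% had a positive call with IFRD1 in SM and 3.19% with ZBTB16. Of the 698 other probes more than 1 log2 unit higher in LM, 354 (50.7%) had a positive call with IFRD1 in SM. With ZBTB16 it was 264 of 698 (37.8%), so that the overlap is not particular to this pair of genes. In LM the 242 positive calls of ZBTB16 and the 38 of IFRD1 had 0 in common.

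The signal of these probes was set beside that of all probes kept, whose median processed signal in SM was 420. The probes called with a positive slope on IFRD1 in SM had a median of 543 there, and those of ZBTB16 of 800. The 7 probes called with MITF were fainter, with a median of 133. Among probes of the same range of SM signal, between the quartiles of those called with IFRD1, 168 of 297 that were more than 1 log2 unit higher in LM were called (56.6%), and 113 of 5674 others (1.99%). For ZBTB16 the counts were 140 of 277 (50.5%) and 35 of 5707 (0.613%). The part of signal level in these calls was not tested. A single mean was then taken for each array over the 696 probes more than 1 log2 unit higher in LM, without the 3 genes themselves, and expressed as a percentage of the mean difference between the muscles, with the mean of SM at 0 and that of LM at 100. SM arrays lay between -33.8 and 38.4 and LM arrays between 90.3 and 108. The probes were chosen on these same arrays for being higher in LM, so that the gap between the muscles is no finding.

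On that scale the SM array of pig 159 was the highest. In SM the mean of the LM-overrepresented probes had an r of 0.62 with IFRD1 over 89 arrays, of 0.49 with ZBTB16 over 83 and of 0.47 with MITF over 67, and of 0.58, 0.44 and 0.43 without pig 159. Within slides the values were 0.61, 0.43 and 0.41. In LM the same mean had r of 0.21, 0.08 and -0.08 with IFRD1, ZBTB16 and MITF, over a much smaller range. Given this mean, the r of ZBTB16 and MITF in SM was 0.25 in place of 0.44, that of ZBTB16 and IFRD1 0.12 in place of 0.39, and that of MITF and IFRD1 -0.19 in place of 0.19. All these points share the array and its centring, the mean was defined after the values had been seen, and no P value is given. In SM it had an r of -0.05 with the median signal of the array and of -0.11 with the share of probes well above background.

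**Figure D4:**
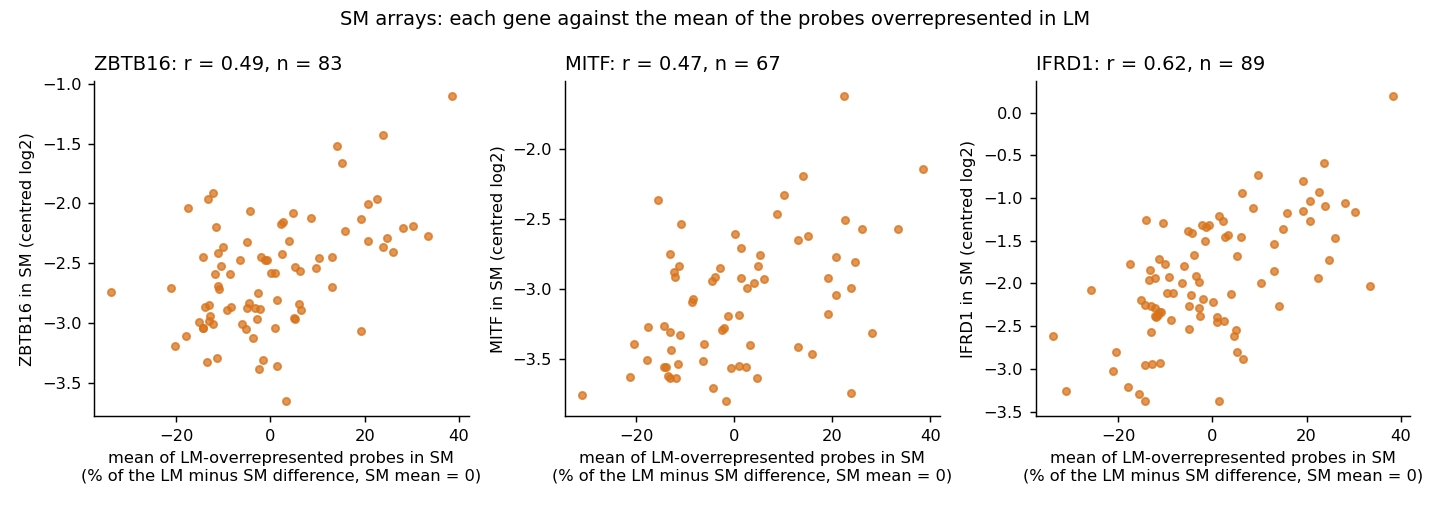
Centred log2 value of ZBTB16, MITF and IFRD1 in each SM array (vertical axes) against the mean of the 696 probes overrepresented in LM by more than 1 log2 unit (horizontal axes, in % of the difference between the muscles). The highest array, of pig 159 at 38.4, is also the highest of ZBTB16 and IFRD1.

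Genes tied to each regulator were taken from lists. Few members of a list had a name on the array, and those with a name had been found different between the muscles, so that no count of their direction is given. Of 24 glucocorticoid-responsive genes 7 were measured. NFKBIA, the inhibitor of NF-kappa-B, had the highest r with ZBTB16 in both muscles (0.39 in LM, adjusted P = 0.0355, and 0.44 in SM, adjusted P = 0.00518). It was the only one of the 7 called, where 2.67% of all probes were called in LM and 3.65% in SM. FKBP5, a co-chaperone of the glucocorticoid receptor, had values of 0.26 and 0.35 (adjusted P = 0.247 and 0.0737), and MAOA was lowest with -0.05 and -0.18 in LM and SM. The median r of the 7 was 0.12 in LM and 0.22 in SM, against 0.02 over all probes in each muscle. NFKBIA lost its call in LM once the C-rich index was a covariate (adjusted P = 0.0568).

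Of 12 co-repressor and ubiquitin ligase partners of ZBTB16, 3 were measured and none was called. Over all probes 2.67% were called with ZBTB16 in LM and 3.65% in SM. NCOR1, a nuclear receptor co-repressor, had r of 0.27 in LM and -0.03 in SM, HDAC2, a histone deacetylase, -0.24 and -0.23, and BMI1, a polycomb protein, -0.24 and -0.10. Of 39 ZBTB family genes 6 were measured and none was called with ZBTB16, against the same shares of all probes. ZBTB25 had the highest r in LM (0.35, adjusted P = 0.0752) and ZBTB1 the lowest (-0.22), while in SM ZBTB38 was highest (0.26) and ZBTB5 lowest (-0.08). The median r of the family was 0.19 in LM and 0.14 in SM.

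Of 25 relatives and targets of MITF 5 were measured, none of them a paralogue of MITF. None was called with MITF in either muscle. Over all probes 0.928% were called with MITF in LM and 0.0637% in SM, so that the lack of a call among 5 genes says little. TPCN2, a lysosomal ion channel of melanosomes, had the highest r (0.11 in LM and 0.31 in SM) and ACP5, the tartrate-resistant phosphatase of osteoclasts and macrophages, the lowest (-0.12 and -0.19). TYR, the classical target, had r of -0.02 and 0.17 with MITF, where it had 0.54 and 0.49 with IFRD1. TYR was the only one measured of 5 melanocyte markers, with a processed signal of 1063 to 5516 in LM and 159 to 1764 in SM, and it was higher in LM by 2.02 on the log2 scale. No other melanocyte gene was named, so whether melanocytes were present was not tested. MS4A2, the only one measured of 6 mast cell markers, had r of 0.19 and 0.03 with MITF, neither called.

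IFRD1 was followed by several stress and immediate-early genes, of which 9 of 28 were measured. In LM, 3 of the 9 were called, FOS, BTG2 and ATF3 (r = 0.43, adjusted P = 0.047), all with a positive slope, while 0.346% of all probes were called in that direction and 0.455% in either. The call of ATF3 was lost with centring on the 75th percentile (0.0543). In SM, FOS and KLF2, a Kruppel-like factor (r = 0.44, adjusted P = 0.00201), were called, while 7.26% of all probes were. FOSL2 was lowest in LM (-0.05) and HSPA5, an endoplasmic reticulum chaperone, in SM (-0.22). The genes called, FOS, BTG2, ATF3 and KLF2, were higher in SM, by 0.44 to 0.64 on the log2 scale, the opposite of IFRD1. Of the genes not called, GADD45B and HSPA5 were also higher in SM. KLF10, GADD45A and FOSL2 were higher in LM like IFRD1, by 0.24 to 0.60. The median r of the 9 was 0.20 in LM and 0.16 in SM, against -0.004 and 0.001 over all probes.

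Of 11 relatives and partners of IFRD1, 5 were measured. NFKB1, a subunit of NF-kappa-B, was called in SM (r = 0.48, adjusted P = 0.000322) but had an r of -0.02 in LM, and it was called with ZBTB16 in SM too (r = 0.46, adjusted P = 0.00242). NFKB1 was higher in LM by 1.23 on the log2 scale, like most probes that followed IFRD1 in SM. MEF2C was highest in LM (0.08) and SMYD1, a muscle methyltransferase, lowest (-0.12), while MYOD1 was lowest in SM (-0.18). None of 11 measured myogenic regulators of 20 was called, where 0.455% of all probes were called with IFRD1 in LM and 7.26% in SM. ID3 and ID1, inhibitors of MyoD, had the highest r with IFRD1 in LM (0.38 each, adjusted P = 0.0953), and ID1 also in SM (0.27), while TEAD4 was lowest in LM (-0.22) and MYOG in SM (-0.22). The median r of the myogenic regulators was 0.09 in LM and 0.07 in SM.

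Markers of other cells were set beside the 3 genes. Over 11 cell type lists, 31 markers were measured of 76. With IFRD1 in SM 4 were called (12.9%, against 7.26% of all probes). TYR had a positive slope, and CD14 of macrophages (r = -0.39), CDH5 of endothelium (-0.37) and LUM of fibroblasts (-0.33) had a negative one. The other markers measured of those last lists were not called. VWF of endothelium and CD68 of macrophages had r of 0.03 each. C1QC and ACP5 of macrophages had r of -0.23 and -0.26, and COL1A2 of fibroblasts -0.24. With ZBTB16, 2 markers were called in LM, CKM of muscle fibres (r = 0.46) and S100B of nerve (0.40), and 2 in SM, COL1A2 and LUM. This is 6.45% of the 31 in each muscle, against 2.67% of all probes in LM and 3.65% in SM. In LM the 7 measured muscle fibre markers had a median r of 0.01 with ZBTB16, and 4 of them lay above 0. PMP22, the other nerve marker measured, had an r of -0.17. The calls of CKM and S100B were lost with the C-rich index (adjusted P = 0.0785 and 0.519). That of S100B was also lost with failed spots kept (0.398), with array signal as covariates (0.0676) and with centring on the 75th percentile (0.0516). The call of LUM with IFRD1 was lost with centring on the 75th percentile (0.446) and with failed spots kept (0.05001). With MITF none was called in LM or SM, against 0.928% and 0.0637% of all probes. The muscle fibre markers measured, among them ACTA1, CKM and MYH1, had summed signals of 594492 or more in every array.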

How the data were processed

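Values came from the scanner files of 90 LM and 90 SM arrays. As deposited, the processed signal is an intensity from Feature Extraction (9.5.1.1 for 44 LM arrays, 9.5.3.1 for the others), with the background subtracted and no normalization between arrays. A value table deposited beside them holds 6903 probes on the natural log scale, less 1 constant per array, and served as an alternative.

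Faint spots (not well above background), non-uniform spots and saturated spots were set to missing. Probes with over 50% of such spots in a muscle were left out, arrays were centred on their median log2 signal, and values over 3 SD from the mean of a probe were removed, after the methods of the paper. The labels lack terms that the study modelled (sex, weight of the carcass, batches of slaughter and of hybridization). Fits used limma 3.58.1 in R 4.3.3, and Python 3.11.15 with NumPy 2.4.6 was used for permutations. P values were adjusted by Benjamini and Hochberg and called at 0.05. Slides with fewer than 3 arrays were left out of slide tests. Steps were tested on simulated data. The number of usable spots per muscle limits the precision.

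Named genes were the 5 with the highest and the 3 with the lowest r for each gene and muscle (60 or more arrays with both), and the highest and lowest of each list. Other list genes were named where they were called or belonged to a list of few members, after their values had been seen. For a list gene with several probes the brightest was used. A further list, of lysosome genes, is not reported here. The 3 genes and all lists were chosen with earlier results of these data known. The pig number pairs the muscles by label. Across probes, the deviations of the 2 muscles of a pig had a median r of -0.0099 over 83 pigs, against -0.0025 for different pigs.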

Additional observations from a re-analysis of the deposited data

Results flagged for a closer look

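ZBTB16 and MITF were related differently in the 2 muscles: r was 0.44 in SM and -0.14 in LM over the same 64 pigs, a difference of 0.58 (muscles swapped within pigs, 100000 permutations, P = 0.00311, adjusted over 3 pairs 0.00933). It is listed because the test of the difference itself passed. Within slides the difference was 0.48 (adjusted permutation P = 0.0231), and with failed spots kept it was 0.35 over 90 pigs (0.073).

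MITF and IFRD1 had an r of 0.19 in SM and of -0.21 in LM over 67 pigs, a difference of 0.40 (permutation P = 0.0332, adjusted 0.0498), listed for the same reason. It lies at the threshold, with an adjusted P of 0.0504 when outlying values were kept and of 0.134 within slides. For ZBTB16 and IFRD1 the difference was 0.12 (adjusted P = 0.509). No group had 10 samples or fewer, so that no search for single outlying samples was made. Both tests were chosen after the values had been seen.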

How the results depend on the processing

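The difference of the 3 genes between LM and SM kept its direction under all 10 alternatives, and with the pig as a replicate block it was 2.31 for ZBTB16, 2.16 for MITF and 2.61 for IFRD1 (log2). Normexp moved it by more than the SD among pigs for ZBTB16 (1.43) and MITF (1.16). The r of ZBTB16 and MITF in SM was 0.26 and missed the threshold with failed spots kept (adjusted P = 0.059) and in the deposited table (0.0602), as did that of ZBTB16 and IFRD1 in SM without the 2 farthest pigs (0.26). The size of r in SM also depended on the background correction. With normexp it was 0.81 for ZBTB16 and MITF and 0.60 for ZBTB16 and IFRD1, in place of 0.44 and 0.39. With normexp 2 further pairs passed, MITF and IFRD1 in LM (-0.27) and in SM (0.48). Signs turned only for correlations that had not passed: ZBTB16 and MITF in LM by rank (0.037) and with software 9.5.1.1 (0.15), ZBTB16 and IFRD1 in LM with 9.5.1.1 (-0.19), ZBTB16 between muscles with the index of C-rich probes (-0.0053) and in the deposited table (-0.0084), and IFRD1 between muscles by rank (-0.026), within slides (-0.059), with the 75th percentile (-0.00096), with normexp (-0.024) and without 2 pigs (-0.040). The SM minus LM difference in r passed with normexp for ZBTB16 and IFRD1 (0.37). It missed the threshold for ZBTB16 and MITF with failed spots kept (0.35) and in the deposited table (0.27), and for MITF and IFRD1 within slides (0.34), with the 75th percentile (0.36), with quantile normalization (0.39), with failed spots kept (0.35), without removal of outlying values (0.40) and in the deposited table (0.32). By scan day, the F value of ZBTB16 in LM was 0.976, no longer called, and that of IFRD1 without slide 29 was 1.25. By scan day 3098 in place of 1642 probes were called in SM. Calls with ZBTB16 were 69 in LM with the C-rich index and 772 in SM without the slide term. Calls with MITF in LM were 40 with array signal and 31 with the C-rich index. Those with IFRD1 in LM were 207 without the slide term and 85 with array signal. Those with MITF in SM were 461 without the slide term, 1001 with failed spots kept and 4 with the 75th percentile, in place of 7. The causes were not tested. Of 265 refits of the slopes of the named genes and closest probes, 236 stayed on the same side of the threshold, 18 came to pass it, 11 no longer did, and none turned in sign. The alternatives on the C-rich index for these fits, on software versions, on single pigs, on slide 29 and on differences in r were chosen after seeing the data. No probe of ZBTB16, MITF or IFRD1 other than these 3 had a name, so a second probe could not be set beside them.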
